A study of Homo sapiens with 46 samples.

Results

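Chemokines are small secreted proteins that draw white blood cells along a gradient, and 8 of them are described here across breast cancer cells, glioblastoma cells and a breast tumour xenograft. The members are CXCL1, CXCL2, CXCL3, CXCL5, CXCL6, CXCL8, CCL2 and CCL20, neutrophil-attracting CXC chemokines plus a pair of CC chemokines of the same inflammatory programme. The members and the gene lists used below were chosen with earlier results of these data known. Counts of called genes among them therefore describe these data and are no independent test. The members are 8 of the 60668 gene identifiers in the count tables. The study measured RNA by sequencing after lowering TRA2B, a splicing factor, by either of 2 routes. ASO-1570 is a splice-switching antisense oligonucleotide that raises inclusion of a TRA2B poison exon, an exon whose presence marks the transcript for decay, and an siRNA against TRA2B is the other. MDA-MB-231, a triple-negative breast cancer line, and U87MG, a glioblastoma line, were transfected with ASO-1570 at 200 nM, ASO-1570 at 50 nM or TRA2B siRNA at 10 nM, and each experiment had its own control oligonucleotide or control siRNA at the same dose. The carrier was a lipid reagent, and RNA was taken after 48 h. Each of these 12 groups held 3 libraries. Nothing in the labels says that the 3 libraries of a group came from separate cultures, so p-values measure the spread between these libraries, which may be technical. The xenograft (PDX), a human breast tumour grown in mice, was injected in the tumour with ASO-1570 or the control oligonucleotide at 50 mg/kg, 3 times a week for 4 weeks, with 5 tumours per group. The labels call the host mice immunocompetent, and how reads from host cells were handled is not given in the sources used here. The MDA-MB-231 libraries at 50 nM and with siRNA carry a glioblastoma cell type label. They are treated as MDA-MB-231, as their names and cell line label say.

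CXCL1, CXCL2, CXCL3, CXCL5, CXCL6 and CXCL8 share the ELR motif before their first cysteines and signal through CXCR2, and CXCL6 and CXCL8 also through CXCR1; they recruit neutrophils and promote vessel growth. CCL2 recruits monocytes through CCR2, and CCL20 draws dendritic cells and lymphocytes through CCR6. In epithelial, glial and tumour cells these genes are switched on within hours by interleukin-1 or tumour necrosis factor through NF-kB bound close to the transcription start. Many of these mRNAs carry AU-rich elements, through which proteins such as ZFP36 (tristetraprolin) destroy them. The nuclease ZC3H12A (regnase-1) also degrades inflammatory mRNAs. The level of such an mRNA therefore reflects synthesis and decay together, and RNA sequencing of a single time point does not separate the pair.

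On chromosome 4 lie 6 of the members, in 1 cluster, and the letters of their promoters show how alike they are. The positions on GRCh38 (GENCODE v29) are chr4:73740506-73743716 for CXCL8 (ENSG00000169429, plus strand), chr4:73836497-73849064 for CXCL6 (ENSG00000124875, plus strand) and chr4:73869393-73871242 for CXCL1 (ENSG00000163739, plus strand). Next come CXCL5 at chr4:73995642-73998779 (ENSG00000163735), CXCL3 at chr4:74036589-74038807 (ENSG00000163734) and CXCL2 at chr4:74097035-74099293 (ENSG00000081041), all on the minus strand. CCL20 (ENSG00000115009) is at chr2:227805739-227817564 and CCL2 (ENSG00000108691) at chr17:34255218-34257203, both on the plus strand. RefSeq (GRCh38.p14) gave a promoter, running from 250 bases before to 50 bases after the start, for 7 of the 8 members; that of CCL2 was not matched. The stretches below end just before the start and are written 5′ to 3′ on the strand of the gene, with capitals marking the match to an NF-kB or AP-1 motif. They are shown because the same NF-kB letters recur at nearly the same distance from the start in genes whose levels are compared throughout.
CXCL1, chr4:73869284-73869383, plus strand: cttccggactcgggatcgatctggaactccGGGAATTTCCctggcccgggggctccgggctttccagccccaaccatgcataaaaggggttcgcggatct
CXCL2, chr4:74099204-74099303, minus strand: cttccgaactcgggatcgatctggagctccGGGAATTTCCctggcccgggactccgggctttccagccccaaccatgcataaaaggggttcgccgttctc
CXCL3, chr4:74038699-74038798, minus strand: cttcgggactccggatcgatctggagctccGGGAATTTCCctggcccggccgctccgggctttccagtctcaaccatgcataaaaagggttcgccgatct
CXCL5, chr4:73998699-73998798, minus strand: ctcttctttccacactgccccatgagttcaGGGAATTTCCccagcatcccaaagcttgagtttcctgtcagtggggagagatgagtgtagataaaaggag
CXCL6, chr4:73836558-73836657, plus strand: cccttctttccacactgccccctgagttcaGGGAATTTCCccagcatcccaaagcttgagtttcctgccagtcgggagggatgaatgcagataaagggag
CXCL8, chr4:73740422-73740546, plus strand: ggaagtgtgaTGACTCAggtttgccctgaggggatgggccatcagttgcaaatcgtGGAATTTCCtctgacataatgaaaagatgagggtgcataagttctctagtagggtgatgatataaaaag
CCL20, chr2:227813732-227813832, plus strand: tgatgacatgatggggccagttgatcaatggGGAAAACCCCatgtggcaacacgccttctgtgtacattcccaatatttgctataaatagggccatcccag

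Motifs were searched on both strands of the whole promoter window of 27305 genes. The 10 letters GGGAATTTCC were taken from the NF-kB match of the CXCL1 promoter, so their presence in CXCL1 was given. They were also present in CXCL2, CXCL3, CXCL5 and CXCL6, against 44 promoters (0.161%) in all. Their first base lay 79 bases before the start in CXCL1 and CXCL3, 78 in CXCL2, 91 in CXCL5 and 90 in CXCL6. The promoters as a whole are alike, 82.8 to 86.6% identical between CXCL1, CXCL2 and CXCL3, and 84.2% between CXCL5 and CXCL6. CXCL8 held the shorter GGAATTTCC, present in 0.472% of promoters and contained in the longer form, from base -91, and did not match the general NF-kB consensus. CCL20 matched the general NF-kB consensus (10.8% of promoters) on the minus strand from base -79. The AP-1 letters TGANTCA, found in 7.76% of promoters, were in CXCL8 alone among the 7 members, 137 bases before the start. CXCL1, CXCL2 and CXCL3 also shared CATAAAA from base -31 (3.82% of promoters), where CXCL8 and CCL20 had TATAAA (11.95%) from bases -31 and -29. A match describes letters and not occupancy by a factor, and the RefSeq start lies inside the GENCODE gene for all of the 7 but CXCL1. The NF-kB match of CXCL2, CXCL3, CXCL5, CXCL6 and CCL20 lies inside that interval too.

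**Figure D1:**
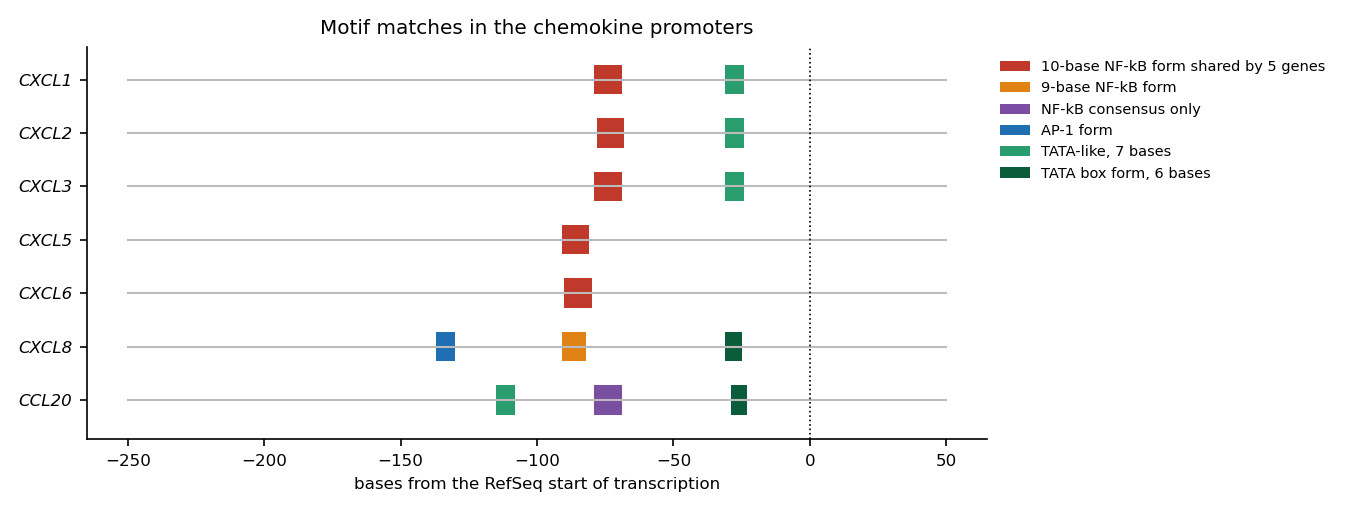
Position of each motif match in the 7 RefSeq promoters, with distance from the annotated start in bases on the x axis and one row per gene; boxes mark the NF-kB letters, the AP-1 letters and the TATA-like letters. The NF-kB boxes of all 7 genes begin between 91 and 78 bases before the start.

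The sequence likeness touches the counts of 3 members. Whole transcripts were 90.5% identical between CXCL1 and CXCL2, 83.3% between CXCL2 and CXCL3 and 81.7% between CXCL1 and CXCL3 (GENCODE v29, longest coding transcript of each). Of all windows of 50 bases, 5.73% in CXCL1, 9.24% in CXCL2 and 5.26% in CXCL3 occurred letter for letter in another of the members. No window of 151 bases, the read length in the labels, was shared, and the other 5 members shared no window of any length tried. How reads matching more than one gene were counted is not given in the sources used here, so the counts of CXCL1, CXCL2 and CXCL3 are uncertain to that extent, and their sum is given beside them where it matters. The 3′ untranslated regions differ in their AU-rich letters. ATTTA occurred 10 times in CXCL2, 7 times in CXCL3, 5 times in CXCL1, 9 times in CXCL8, 11 times in CXCL5, 6 times in CXCL6, 3 times in CCL20 and 1 time in CCL2. At least as many were found in 12.4% of all genes for CXCL2, 20.3% for CXCL3, 28.6% for CXCL1, 14.5% for CXCL8, 10.7% for CXCL5, 24.1% for CXCL6, 41.3% for CCL20 and 67.6% for CCL2. The longer nonamer that contains it was present 5 times in CXCL2, 3 times in CXCL1 and 1 time each in CXCL3 and CXCL8, and was found at all in 8.21% of 19146 genes.

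Total counts were 259.9 to 356.8 M per library at 200 nM and 74.98 to 112.8 M in the other experiments. TRA2B itself checks the labels: at 200 nM it was at 104, 106 and 116 CPM (counts scaled to the library size) in MDA-MB-231 with ASO-1570, against 196, 206 and 192 CPM with the control. With siRNA it was at 22.7, 21.4 and 22.5 CPM, against 196, 194 and 186 CPM. In the PDX it overlapped, with 77.7 to 114 CPM in treated tumours and 78.3 to 130.1 CPM in controls. All 6 epithelial markers reached 1 CPM in MDA-MB-231 and in the PDX, where U87MG had CDH1, EPCAM and KRT19 below 1 CPM. Of the glioma and neural markers, NES, VIM and OLIG2 reached 1 CPM in U87MG, where S100B and SOX2 did not, nor GFAP at 200 nM. GFAP, NES and VIM also reached 1 CPM in every MDA-MB-231 group. Only OLIG2 reached it in all U87MG groups and in no MDA-MB-231 group. Of 7 leukocyte markers, PTPRC, CD3E, LYZ and FCGR3A averaged below 1 CPM in every group. CD68 averaged 42.0 to 538 CPM and CSF1R 3.88 to 10.9 CPM over the cell line groups, and CD14 averaged 7.13 CPM in treated and 8.79 CPM in control PDX tumours.

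The lines started from different levels. Control U87MG cells held CXCL8 as their main chemokine, and control MDA-MB-231 cells held 7 of the members at much lower levels. Levels per gene length, as CPM per kilobase of exon, ranked CXCL8 first in control U87MG at 200 nM with 1696, followed by CXCL2 at 177, CXCL3 at 66.9, CXCL5 at 24.1, CXCL1 at 21.9, CCL20 at 16.02 and CCL2 at 2.13. No neighbours in that order overlapped between libraries, but with the longest transcript as the length CCL20 and CXCL5 changed places. In control MDA-MB-231 cells of the same experiment the order was CXCL8 at 13.2, CXCL2 at 2.25, CXCL1 at 1.42, CXCL3 at 0.497, CCL2 at 0.235, CCL20 at 0.0263 and CXCL5 at 0.00127. There CXCL2 and CXCL1 overlapped. The difference between the control groups, MDA-MB-231 minus U87MG, was called lower for all 6 members other than CXCL5 in each of the 3 experiments, where 35.4% of all genes tested were called lower at 200 nM, 36.2% at 50 nM and 40.1% with siRNA. On the log2 scale it was -9.20 for CCL20, -7.07 for CXCL3, -7.01 for CXCL8, -6.30 for CXCL2, -3.94 for CXCL1 and -3.18 for CCL2 at 200 nM. In the siRNA experiment it was -5.94 for CCL20, -4.45 for CXCL3, -4.18 for CXCL8, -3.09 for CXCL2, -2.33 for CXCL1 and -4.25 for CCL2, so smaller in size for all of these but CCL2. CXCL5 had 0, 3 and 0 counts in the MDA-MB-231 controls against 20402, 18796 and 17557 counts in the U87MG controls. CXCL6 had no count in any MDA-MB-231 library of the 3 experiments nor in U87MG of the siRNA experiment. It passed the filter on low counts in the PDX only, so 7 of the 8 members were tested in each cell line experiment.

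**Figure D2:**
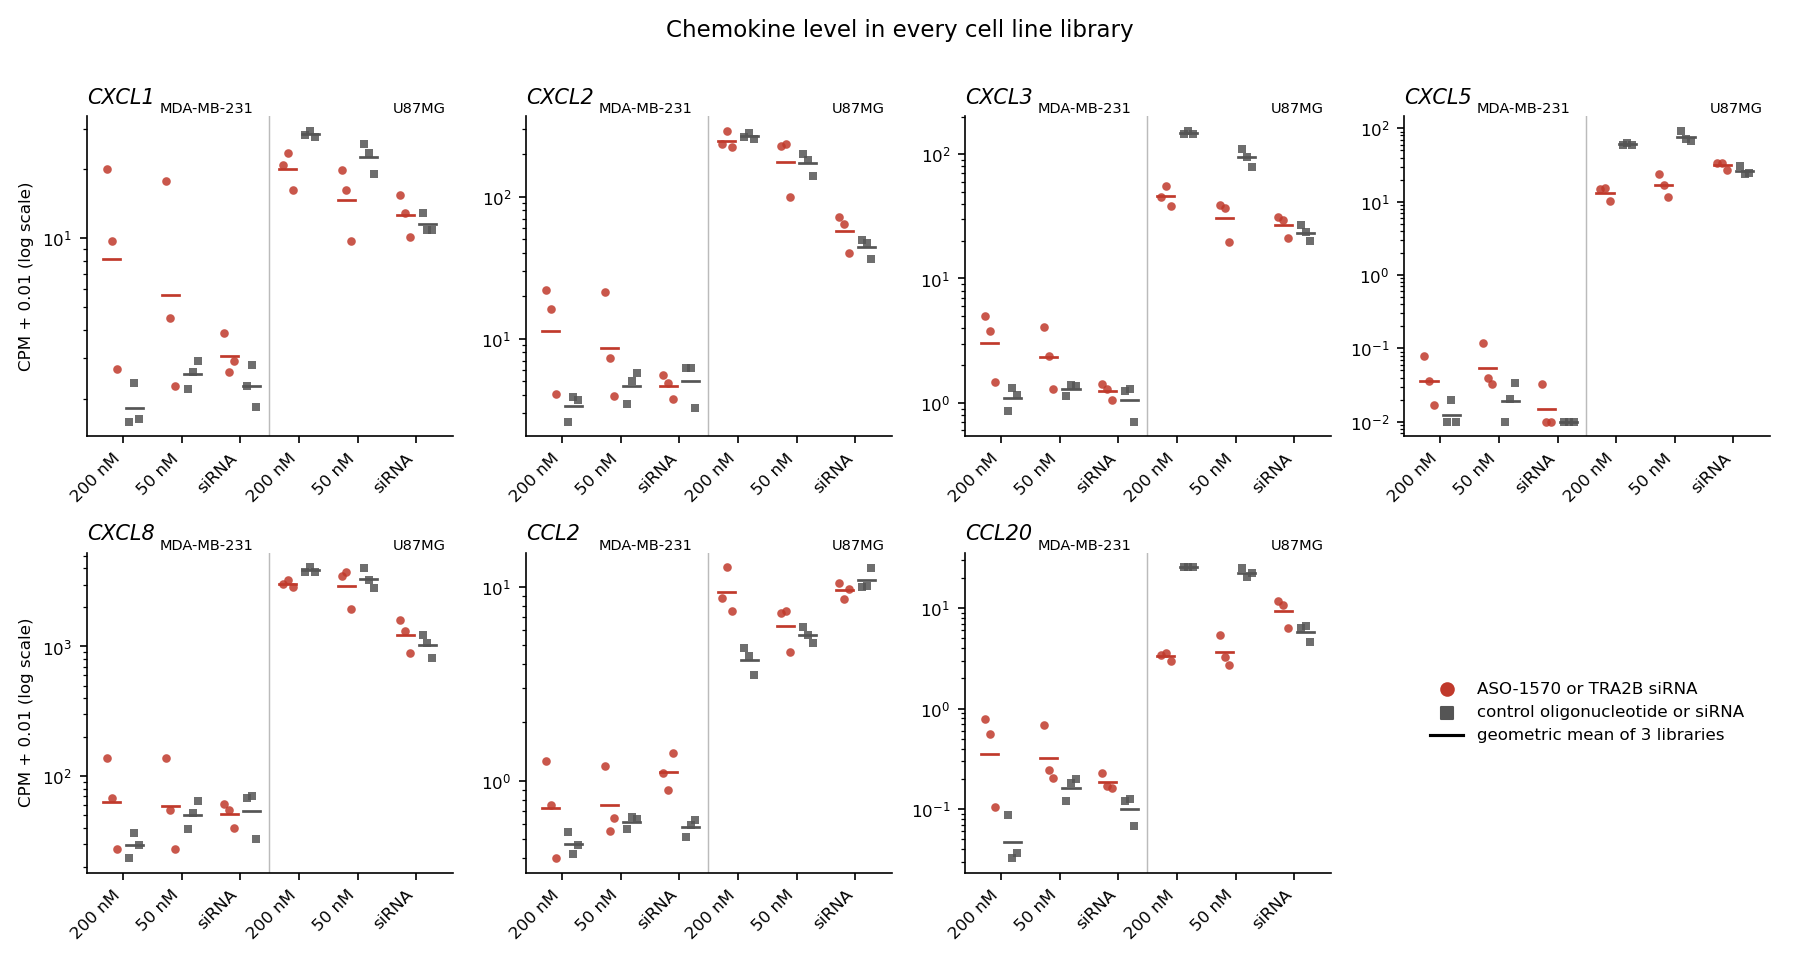
Level of 7 chemokines in each cell line library, as CPM plus 0.01 on a log scale, with one panel per gene; red circles are ASO-1570 or TRA2B siRNA libraries, grey squares their controls, and bars the geometric mean of 3 libraries. In MDA-MB-231 the highest treated circles lie above the controls at 200 and 50 nM. For some genes, such as CXCL8 and CCL2, the lowest treated circles lie among or below the controls. In U87MG the ASO-1570 circles of CXCL3, CXCL5 and CCL20 lie below their controls.

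In MDA-MB-231 cells, ASO-1570 at 200 nM raised CXCL1, CXCL2, CXCL3 and CCL20, with every treated library above every control. Leaving aside CXCL5, which had almost no counts there, the quasi-likelihood test of edgeR called 5 of 6 members higher, the fifth being CXCL8, and 0 lower at an adjusted p below 0.05, against 25.2% of all genes called in either direction, 11.7% higher and 13.6% lower. The median log2 change of the 6, treated minus control, was 1.84, against 0 over all genes tested. CXCL1, a growth-regulated oncogene that attracts neutrophils, had 20.1, 9.76 and 2.69 CPM in the treated libraries, against 1.58, 2.33 and 1.63 CPM in controls. All treated libraries lay above all controls, the first far above and the third barely. The log2 change was 2.55 (SE 0.51, edgeR adjusted p = 0.00362), a fold of 5.87. CXCL2, its closest relative, had 22.1, 16.1 and 4.07 CPM, against 2.59, 3.85 and 3.70 CPM, and CXCL3 had 4.95, 3.76 and 1.45 CPM, against 0.850, 1.31 and 1.14 CPM. Their groups did not overlap either, and replicate 1 was again highest and replicate 3 lowest. The log2 changes were 2.06 for CXCL2 (SE 0.43, adjusted p = 0.00479) and 1.62 for CXCL3 (SE 0.34, adjusted p = 0.00491). Summed over these 3 genes, so that shared reads cannot move between them, the log2 change was 2.16 (SE 0.44, adjusted p = 0.00402). Here and below, more RNA per cell and more cells expressing a gene cannot be told apart, since whole cultures or tumours were sequenced.

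CCL20 changed most in proportion, from very few reads. It had 0.770, 0.551 and 0.0939 CPM in treated MDA-MB-231 libraries at 200 nM, against 0.0764, 0.0225 and 0.0267 CPM in controls. The groups did not overlap, though treated replicate 3 and control replicate 1 nearly met. The log2 change was 3.44 (SE 0.65, adjusted p = 0.00261), a fold of 10.9. CXCL8, the most abundant member, had 138, 68.2 and 27.8 CPM, against 23.5, 36.8 and 29.8 CPM. Treated replicate 3 lay below 2 of the 3 controls, so the groups overlapped; the log2 change of 1.38 (SE 0.40, adjusted p = 0.0246) passed the threshold but was not called without treated replicate 1 (log2 change 0.67, adjusted p = 0.119), control replicate 1 (adjusted p = 0.0925) or control replicate 3 (adjusted p = 0.0712), or in a fit of these 2 groups alone (adjusted p = 0.0762). CXCL5 was close to undetectable, with 21, 7 and 2 counts in treated libraries, against 0, 3 and 0 counts in controls (adjusted p = 0.0437). It passed the filter through the U87MG libraries of the same table, so it is not counted among the calls in MDA-MB-231 nor in the differences between the lines. Its call was also lost with no filter (adjusted p = 0.0751) and without treated replicate 1 (adjusted p = 0.215), treated replicate 2 (0.0729), control replicate 1 (0.135) or control replicate 3 (0.114). CCL2, the monocyte chemokine, had 1.25, 0.737 and 0.389 CPM, against 0.535, 0.408 and 0.458 CPM. Treated replicate 3 was the lowest of the 6 libraries, and the interval of the log2 change ran from 0.09 to 1.44 (estimate 0.76, adjusted p = 0.128); without treated replicate 3 it was called (1.09, adjusted p = 0.0116). Of the 6 members other than CXCL5, CXCL1, CXCL2, CXCL3 and CCL20 were thus higher in every treated library, against 19% of all genes.

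The spread inside the treated group was itself wide. The highest treated MDA-MB-231 library at 200 nM exceeded the lowest by 7.48 times for CXCL1, 8.20 times for CCL20, 5.43 times for CXCL2, 4.97 times for CXCL8 and 3.42 times for CXCL3, where the controls differed by 1.48, 3.398, 1.49, 1.57 and 1.55 times. Without treated replicate 1, the log2 change was 1.75 for CXCL1 (adjusted p = 0.011), 1.57 for CXCL2 (adjusted p = 0.02), 1.24 for CXCL3 (adjusted p = 0.021) and 2.87 for CCL20 (adjusted p = 0.011), so 4 of the 5 calls held. Of 12 other NF-kB targets tested, 8 had the same order of treated replicates, the first highest and the third lowest, as did 8.96% of all genes. ICAM1, a leukocyte adhesion molecule and one of the 8, had 181, 119.5 and 80.0 CPM in treated libraries, against 53.4, 60.8 and 56.8 CPM in controls. ZC3H12A, listed among regulators of mRNA decay, where 2 of 12 had that order, had 30.0, 13.99 and 7.68 CPM, against 6.58, 7.25 and 6.52 CPM. Inclusion of the TRA2B poison exon did not have that order at 200 nM. It was 0.402, 0.556 and 0.301 in treated libraries, highest in replicate 2, against 0.160, 0.159 and 0.161 in controls. At 50 nM in MDA-MB-231 it did have that order, with 0.578, 0.490 and 0.377, against 0.305, 0.254 and 0.250 in controls. In treated U87MG it was 0.418, 0.553 and 0.497 at 200 nM and 0.558, 0.592 and 0.457 at 50 nM. TRA2B RNA spanned only 104 to 116 CPM over the treated MDA-MB-231 libraries at 200 nM. What sets the order of the replicates was not tested.

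At 50 nM the same genes pointed upward in MDA-MB-231 but none passed the test. CXCL1 had 17.8, 4.50 and 2.27 CPM in treated libraries, against 2.20, 2.61 and 2.92 CPM in controls, and CXCL2 had 21.4, 7.34 and 3.92 CPM, against 3.43, 4.999 and 5.68 CPM. Replicate 1 stood high and replicate 3 sat among the controls. The log2 changes were 1.67 for CXCL1 (interval 0.53 to 2.81, adjusted p = 0.0578) and 1.22 for CXCL2 (SE 0.53, adjusted p = 0.126). CXCL3 was at 4.04, 2.37 and 1.28 CPM, against 1.13, 1.39 and 1.36 CPM (log2 change 0.99, adjusted p = 0.0804). CCL20 was the one member whose groups did not overlap, with 0.673, 0.237 and 0.195 CPM, against 0.110, 0.171 and 0.188 CPM (log2 change 1.25, adjusted p = 0.093), where 19.8% of genes had every treated library higher. CXCL8 had 139, 54.6 and 27.4 CPM, against 39.2, 52.0 and 64.2 CPM, its treated libraries lying on both sides of the controls. Leaving aside CXCL5, edgeR called 0 of the 6 members, against 23.3% of all genes. An unadjusted p below 0.05 was reached by 4 of the 6, and DESeq2 called 1, CXCL1 (log2 change 1.64, adjusted p = 0.0411). Single libraries decided this result in both directions. Without treated replicate 1, the log2 change of CXCL1 was 0.40 (adjusted p = 0.47) and that of CXCL8 was -0.33; without treated replicate 3, edgeR called 4 members, CXCL1 (2.11, adjusted p = 0.0074), CXCL3 (1.305, adjusted p = 0.0149), CXCL2 (1.61, adjusted p = 0.0277) and CCL20 (1.53, adjusted p = 0.0417).

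In U87MG cells ASO-1570 lowered CCL20, CXCL5 and CXCL3 at 200 nM, where CCL20 and CXCL3 had risen in MDA-MB-231, and raised CCL2. edgeR called 3 of the 7 members lower and 1 higher, against 49.7% of all genes called, 23.9% lower and 25.8% higher, so the count alone is near the background. CCL20 had 3.39, 3.56 and 2.98 CPM in treated libraries, against 25.5, 25.6 and 25.6 CPM in controls. The groups were far apart and each was tight, with a log2 change of -2.95 (SE 0.46, adjusted p = 0.000212). CXCL5, an epithelial neutrophil attractant, had 14.7, 15.4 and 10.2 CPM, against 59.9, 63.9 and 59.5 CPM. It fell by 2.19 on the log2 scale (SE 0.23, adjusted p = 1.25e-05). CXCL3 had 45.4, 55.4 and 38.1 CPM, against 145, 154 and 146 CPM, and fell by 1.68 (SE 0.32, adjusted p = 0.000791). CCL2 had 8.71, 12.6 and 7.49 CPM, against 4.85, 4.36 and 3.49 CPM. It was higher in every treated library, as were 34.1% of all genes, by 1.18 on the log2 scale (SE 0.32, adjusted p = 0.00915), and was not called without control replicate 3 (0.96, adjusted p = 0.0592).

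CXCL8, CXCL1 and CXCL2 did not pass the test in U87MG. CXCL8 had 3046, 3257 and 2853 CPM in treated libraries at 200 nM, against 3717, 4079 and 3773 CPM in controls, and CXCL1 had 20.9, 23.5 and 16.3 CPM, against 28.1, 29.4 and 27.7 CPM. Every treated library lay below every control for both, as for 32.3% of all genes. Neither passed the test that pools the spread of all 4 groups, with intervals of the log2 change of -1.10 to 0.43 for CXCL8 (adjusted p = 0.509) and -1.42 to 0.43 for CXCL1 (adjusted p = 0.419). A fit of the 2 U87MG groups alone, without the wide MDA-MB-231 spread, gave the same log2 changes of -0.34 and -0.49 and called both lower (adjusted p = 0.00147 and 0.00597). CXCL2 had 235, 289.9 and 222 CPM, against 261, 281 and 255 CPM, with overlapping groups and an interval of -0.88 to 0.70 (adjusted p = 0.882). The make-up of the 3 closely related genes changed with CXCL3. It made up 13.8 to 15.1% of the counts of CXCL1, CXCL2 and CXCL3 in treated libraries and 33.1 to 34.1% in controls, and their sum did not pass (log2 change -0.49, adjusted p = 0.36). CXCL6 was at 0 counts in all 3 controls and at 14, 19 and 5 counts in treated libraries. That is at least 12-fold higher against a floor of 3 counts over the control group, though too low to pass the filter (adjusted p = 0.0167 with no filter).

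The U87MG pattern recurred at 50 nM in separate libraries with separate controls. CCL20 had 5.45, 3.24 and 2.74 CPM in treated libraries, against 25.0, 20.7 and 22.5 CPM in controls, and CXCL5 had 23.5, 17.1 and 11.5 CPM, against 92.4, 71.5 and 67.1 CPM. CXCL3 had 39.0, 36.6 and 19.6 CPM, against 109.95, 95.6 and 79.1 CPM. None of the 3 overlapped, where 30.6% of all genes lay lower in every treated library, and treated replicate 3 was the lowest throughout. They fell by 2.57 (SE 0.34, adjusted p = 6.88e-05), 2.15 (SE 0.25, adjusted p = 2.85e-05) and 1.58 (SE 0.32, adjusted p = 0.00139) on the log2 scale. These were 3 of the 7 members, against 54.6% of all genes called in either direction and 26.7% called lower. CCL2 had 7.31, 7.45 and 4.59 CPM, against 6.21, 5.61 and 5.12 CPM, and was not called (interval -0.29 to 0.68, adjusted p = 0.541). CXCL8 had 3516, 3764 and 1927 CPM, against 3995, 3267 and 2838 CPM, and CXCL2 had 228, 232 and 98.7 CPM, against 200.1, 179 and 140.3 CPM; treated replicate 3 was lowest in both, and both overlapped with their controls. CXCL1 had 19.8, 16.2 and 9.73 CPM, against 25.7, 23.6 and 19.0 CPM (interval -1.65 to 0.49, adjusted p = 0.399). CXCL3 again held 12.8 to 15.3% of the counts of the 3 related genes, against 32.0 to 33.2% in controls. CXCL6 had 8, 6 and 0 counts, against 0, 0 and 3.

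**Figure D3:**
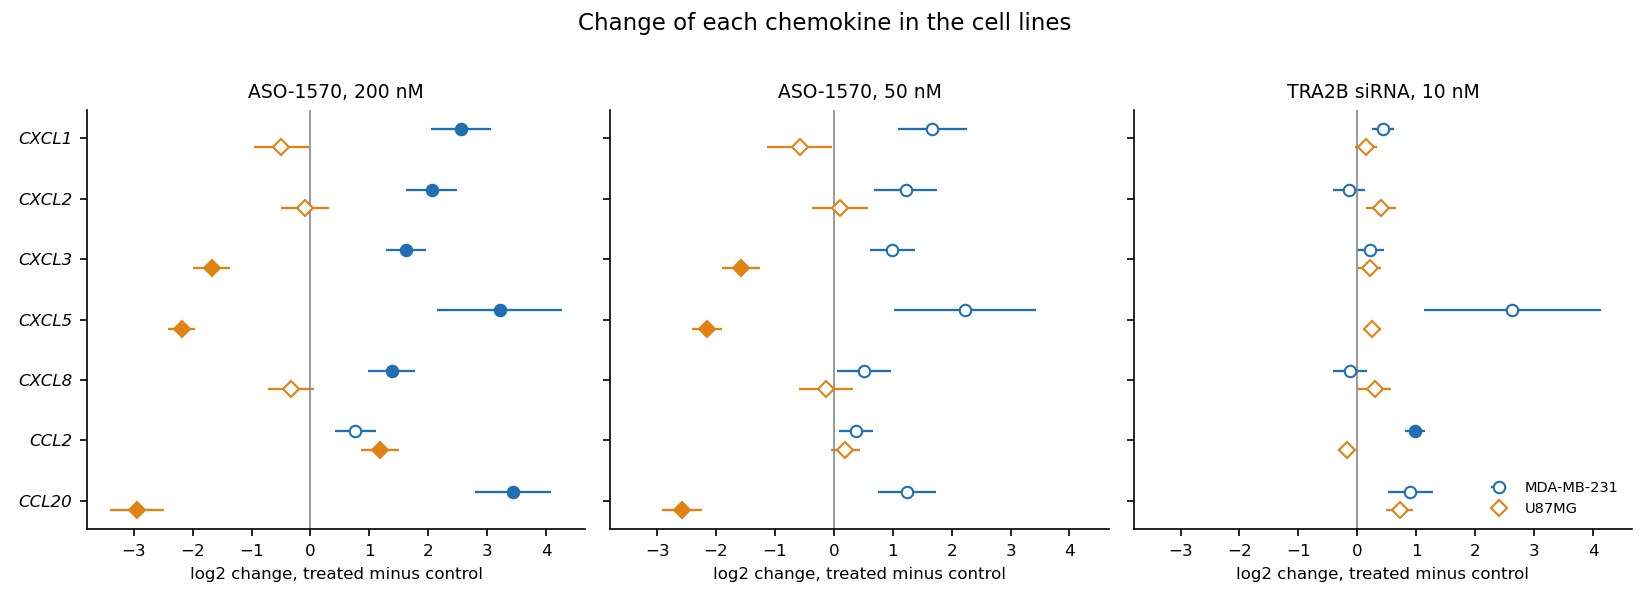
Log2 change of 7 chemokines in MDA-MB-231 (blue circles) and U87MG (orange diamonds) with ASO-1570 at 200 nM, ASO-1570 at 50 nM and TRA2B siRNA, treated minus control; bars are the SE, and filled symbols passed the edgeR threshold. With ASO-1570 the lines part for CCL20 and CXCL3 at both doses, and at 200 nM also for CXCL1, CXCL2 and, least firmly, CXCL8. The CXCL5 values of MDA-MB-231 with ASO-1570 rest on few counts and are not counted as a difference between the lines. With siRNA only CCL2 in MDA-MB-231 (0.97) was called. CCL20 lay at 0.90 in MDA-MB-231 and 0.72 in U87MG, and CXCL5 in MDA-MB-231 (2.63) rests on very few counts.

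The difference between the lines was tested directly, as the change in MDA-MB-231 minus that in U87MG. At 200 nM it was called higher for 5 of the 6 members other than CXCL5, against 23.6% of all genes called and 11.5% called higher. It was 6.39 for CCL20 (SE 0.78, adjusted p = 0.000321), 3.30 for CXCL3 (SE 0.46, adjusted p = 0.00063), 3.05 for CXCL1 (SE 0.69, adjusted p = 0.00787), 2.15 for CXCL2 (SE 0.59, adjusted p = 0.0197) and 1.72 for CXCL8 (SE 0.56, adjusted p = 0.0429). For CXCL5 the adjusted p was 0.00301, which rests on the few MDA-MB-231 counts given above. CCL2 was the exception, higher in treated libraries on average in both lines, with a difference of -0.42 and an interval of -1.34 to 0.50. The call of CXCL8 was lost on leaving out any of 10 of the 12 libraries (adjusted p 0.0545 to 0.0997), and that of CXCL2 without MDA-MB-231 control replicate 1 (adjusted p = 0.0535) or U87MG treated replicate 3 (adjusted p = 0.05001). At 50 nM the difference was called higher for 2 of the 6, against 28.2% of all genes: CCL20 at 3.82 (SE 0.59, adjusted p = 0.00106) and CXCL3 at 2.57 (SE 0.49, adjusted p = 0.00327). Summed over CXCL1, CXCL2 and CXCL3 the difference was 1.66 and was not called (adjusted p = 0.107). CXCL5 had an adjusted p of 0.0196, with few MDA-MB-231 counts again, and was not called without MDA-MB-231 treated replicate 1 (adjusted p = 0.141) or control replicate 1 (adjusted p = 0.0532). For CXCL1 it was 2.25 (adjusted p = 0.0543), and it was called without MDA-MB-231 treated replicate 2 (2.55, adjusted p = 0.045) or treated replicate 3 (2.70, adjusted p = 0.0108).

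The dose made no difference that these data resolve. The change at 200 nM minus that at 50 nM was called for 0 of the 6 members other than CXCL5 in MDA-MB-231, against 0.158% of all genes. In U87MG it was called for 0 of the 7, against 1.66%, and 1 member in each line had an unadjusted p below 0.05. Those were CCL20 in MDA-MB-231 (2.22, SE 0.84, adjusted p = 0.411) and CCL2 in U87MG (1.04, SE 0.39, adjusted p = 0.239). In U87MG the interval of the difference was -0.66 to 0.68 for CXCL5 and -0.90 to 0.79 for CXCL3. The doses were separate experiments sequenced to different depths, so dose and experiment cannot be told apart.

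TRA2B siRNA left less TRA2B RNA than ASO-1570 did, as given above for MDA-MB-231, and few chemokines passed the test. In MDA-MB-231 edgeR called 1 of the 6 members other than CXCL5, CCL2, against 7.24% of all genes. CCL2 had 1.08, 0.884 and 1.38 CPM with TRA2B siRNA, against 0.502, 0.584 and 0.618 CPM with control siRNA. The groups did not overlap, and the log2 change was 0.97 (SE 0.17, adjusted p = 0.00495). CCL20 had 0.219, 0.161 and 0.153 CPM, against 0.110, 0.115 and 0.0579 CPM, higher in every treated library but not called (0.90, SE 0.38, adjusted p = 0.199); both genes are set against 13.4% of genes with every treated library higher. CXCL1 had 3.84, 2.61 and 2.90 CPM, against 2.26, 2.81 and 1.83 CPM (adjusted p = 0.222), and CXCL8 had 61.2, 55.6 and 40.1 CPM, against 68.4, 70.2 and 32.9 CPM (adjusted p = 0.882). Treated and control libraries overlapped for both. CXCL2 and CXCL3 had log2 changes of -0.14 and 0.22, neither called, and CXCL5 had 2 counts in 1 treated library and 0 in the other libraries.

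In U87MG edgeR called 0 of the 7 members with siRNA, against 4.2% of all genes; 1 member had an unadjusted p below 0.05 and DESeq2 called that one, CCL20. CCL20 had 11.7, 10.8 and 6.35 CPM with TRA2B siRNA, against 6.33, 6.59 and 4.58 CPM with control siRNA. Only treated replicate 3 lay within the controls (log2 change 0.72, SE 0.22, adjusted p = 0.104), and without it edgeR called the gene (0.94, adjusted p = 0.0226). CXCL5 had 33.9, 33.4 and 27.0 CPM, against 30.8, 23.8 and 24.6 CPM (adjusted p = 0.476), and CXCL3 had 30.9, 29.4 and 21.1 CPM, against 27.0, 23.6 and 19.9 CPM (adjusted p = 0.666). Both overlapped, and neither was lower in treated libraries, unlike with ASO-1570. CXCL8 was at 888 to 1612 CPM, against 822 to 1217 CPM, and CXCL2 at 39.8 to 72.1 CPM, against 36.3 to 49.6 CPM. CXCL1 was at 10.1 to 15.4 CPM, against 10.8 to 12.9 CPM, and CCL2 at 8.63 to 10.4 CPM, against 9.93 to 12.5 CPM. CXCL3 held 26.1 to 29.8% of the counts of CXCL1, CXCL2 and CXCL3, against 29.02 to 30.2% in controls. The difference between the lines with siRNA was called for CCL2 (1.15, SE 0.22, adjusted p = 0.0499), against 0.527% of all genes, and was lost on leaving out any of 11 of the 12 libraries.

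The oligonucleotide and the siRNA were set against each other by their changes over their own controls. In MDA-MB-231 the change with 200 nM ASO-1570 minus that with siRNA was called for 2 of the 6 members other than CXCL5, against 21.4% of all genes. These were CXCL2 (2.23, SE 0.67, adjusted p = 0.0163) and CXCL1 (2.14, SE 0.71, adjusted p = 0.0311). CCL20 (2.55, adjusted p = 0.0501) and CXCL3 (1.42, adjusted p = 0.0525) lay just outside. Without treated replicate 1 none was called, and without treated replicate 3 there were 5. In U87MG it was called for 4 of 7, CXCL5 (-2.43, adjusted p = 3.06e-06), CCL20 (-3.66, adjusted p = 6.1e-06), CXCL3 (-1.88, adjusted p = 0.000914) and CCL2 (1.36, adjusted p = 0.00531), against 40.4%. At 50 nM, 0 of the same 6 were called in MDA-MB-231, none with an unadjusted p below 0.05, against 11.2% of all genes. In U87MG CXCL5, CCL20 and CXCL3 were called at 50 nM, against 33.8%. Agent, dose and experiment cannot be told apart in these differences.

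Splicing of the chemokine transcripts themselves could be tested for events of CXCL2, CXCL3, CXCL8 and CCL20. No event in a member was called at a difference of at least 0.1 in the fraction spliced in, against 1.42% of events in MDA-MB-231 and 19.6% in U87MG at 200 nM, 0.194% and 13.8% at 50 nM, and 0% with siRNA in both lines and in the PDX. An intron of CXCL3 was retained at 0.083, 0.147 and 0.093 in treated U87MG libraries at 200 nM, against 0.019, 0.021 and 0.018 in controls. All treated libraries were higher, and the difference of 0.088 passed the p threshold (limma adjusted p = 0.0262) but not that of size, and with the replicate block it passed neither (adjusted p = 0.0728). An intron of CXCL2, with a range under 0.05, averaged 0.047 in the same treated libraries, against 0.016 in controls (limma adjusted p = 0.0249 with no minimum range). At 50 nM in U87MG, with no minimum range, CXCL3 averaged 0.054 against 0.032 and CXCL2 0.040 against 0.016 (limma adjusted p = 0.234 and 0.197). The alternative 3′ splice site of CCL20 was used at 0.625, 0.652 and 0.543 in treated U87MG libraries at 200 nM, against 0.541, 0.508 and 0.530 (limma adjusted p = 0.151). The read depth behind these fractions is unknown.

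Among genes at a mean of at least 3 log2 CPM, those most like each member were found by the Pearson correlation across the 36 cell line libraries, after taking out the mean of each line and experiment. For CXCL1 they were ZC3H12A (r = 0.956), CXCL2 (r = 0.929) and C3 (r = 0.917), and for CXCL2 they were CXCL8 (r = 0.944), ZC3H12A (r = 0.921) and ICAM1 (r = 0.874). CXCL8 was most like CXCL2, ZC3H12A (r = 0.902) and NFKBIZ (r = 0.814). CXCL3 was most like IL6 (r = 0.944), SQSTM1 (r = 0.932) and CTSS (r = 0.912). CXCL5 was most like CTSS (r = 0.916), BIRC3 (r = 0.906) and SQSTM1 (r = 0.8995), and CCL20 like SQSTM1 (r = 0.930), CTSS (r = 0.896) and PIM3 (r = 0.888). CCL2 stood apart, with no gene above PNN (r = 0.750), AKR1B1 (r = 0.743) and DNTTIP2 (r = 0.736). Between members, CXCL3 and CXCL5 reached r = 0.947, CXCL5 and CCL20 r = 0.908, and CXCL1 and CXCL8 r = 0.890, where CCL2 had r between 0.11 and 0.53 with the others. CXCL1 had r = 0.828 with CXCL3, 0.806 with CXCL5 and 0.777 with CCL20, and CXCL2 and CXCL8 had r between 0.634 and 0.754 with these. The values of CXCL5 include the MDA-MB-231 libraries, where it had few or no counts. These values are descriptions, since the points share libraries, lines and treatments.

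The genes around the chemokines are given by list, each read against the percentages of all genes above. Of 12 other NF-kB targets, MDA-MB-231 at 200 nM had 8 that rose and 0 that fell (median log2 change 0.86, against 0 over all genes), where U87MG had 3 and 5 (median -0.26). In MDA-MB-231, SAA2, an acute-phase protein, was at 16.9 ± 9.62 CPM in treated libraries and 2.91 ± 0.267 CPM in controls (SD, n = 3 each; log2 change 2.54, edgeR adjusted p = 0.00175). TNFAIP2 rose there to 177 ± 64.2 CPM, against 86.6 ± 5.56 CPM (1.03, adjusted p = 0.00171). In U87MG TNFAIP2 fell by 1.23 on the log2 scale, to 6.61 ± 0.205 CPM, against 15.5 ± 0.876 CPM (SD, n = 3 each; edgeR adjusted p = 0.000152). PTGS2, the inducible cyclooxygenase, also fell in U87MG, by 0.81, to 210.2 ± 33.3 CPM, against 367 ± 12.1 CPM (SD, n = 3 each; edgeR adjusted p = 0.000617). At 50 nM, MDA-MB-231 had 6 that rose and 0 that fell, and U87MG 1 and 5. With siRNA 1 was called in MDA-MB-231 (VCAM1, which rose, log2 change 0.62, adjusted p = 0.0301), and none was called in U87MG.

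Of 16 NF-kB subunits, inhibitors and kinases, MDA-MB-231 at 200 nM had 7 that rose and 2 that fell, and U87MG 2 and 6. NFKB2, which encodes the p100 subunit, had a log2 change of 0.73 in MDA-MB-231 (adjusted p = 0.000684), and BCL3, a nuclear partner of the p50 and p52 subunits, one of 0.62 (adjusted p = 0.00026). In U87MG the inhibitor TNIP1 fell by 0.67 (adjusted p = 0.000258) and the deubiquitinase CYLD by 0.63 (adjusted p = 0.00027). Of 12 inflammatory cytokines, 4 were called higher and 3 lower in MDA-MB-231 (median 0.41), and 1 and 8 in U87MG (median -1.27). The difference between the lines at 200 nM was called higher for 8 of 16 NF-kB genes, 6 of 12 targets and 6 of 12 cytokines, and lower for 0 in each list, against 11.5% of all genes called higher. At 50 nM it was called higher for 10, 5 and 4 of them and lower for 2, 0 and 2. Of 12 regulators of mRNA decay, 2 were called higher and 3 lower in MDA-MB-231, and 3 and 6 in U87MG. ZFP36 had a log2 change of 0.30 in MDA-MB-231 (adjusted p = 0.0122) and of -0.39 in U87MG (adjusted p = 0.000836), and ZC3H12A rose in MDA-MB-231 by 1.34 (SE 0.34, adjusted p = 0.0126). Of 8 AP-1 subunits, 4 rose and 1 fell in each line; JUNB reached 44.0 ± 9.19 CPM in MDA-MB-231, against 22.9 ± 0.609 CPM (SD, n = 3 each; edgeR adjusted p = 0.000315), and ATF3 92.2 ± 11.3 CPM in U87MG, against 29.7 ± 1.48 CPM (SD, n = 3 each; edgeR adjusted p = 4.77e-06).

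Few other chemokines passed the test. Of 16 other chemokines tested at 200 nM, 1 rose in MDA-MB-231 (CCL26, the eosinophil attractant, log2 change 0.85, adjusted p = 0.016), and in U87MG 1 rose and 1 fell. At 50 nM 3 of 14 rose in MDA-MB-231, led by CXCL10, the interferon-induced ligand of CXCR3, at 0.416 ± 0.142 CPM, against 0.0696 ± 0.0324 CPM (SD, n = 3 each; edgeR adjusted p = 0.00287). Of 17 receptors and decoys tested at 200 nM in MDA-MB-231, 2 rose and 3 fell. CXCR4, the receptor of CXCL12, fell by 1.48 on the log2 scale to 1.52, 1.47 and 1.64 CPM, against 3.88, 4.19 and 4.85 CPM (SE 0.19, adjusted p = 0.000224), and by 1.46 at 50 nM (adjusted p = 0.00319). Of 10 nucleic acid sensors, 2 were called higher and 3 lower in MDA-MB-231, and 3 and 2 in U87MG. Of 16 interferon response genes, 4 were called higher and 1 lower in MDA-MB-231, and 5 and 6 in U87MG. With siRNA, 0 other chemokines and 0 receptors were called in either line.

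**Figure D4:**
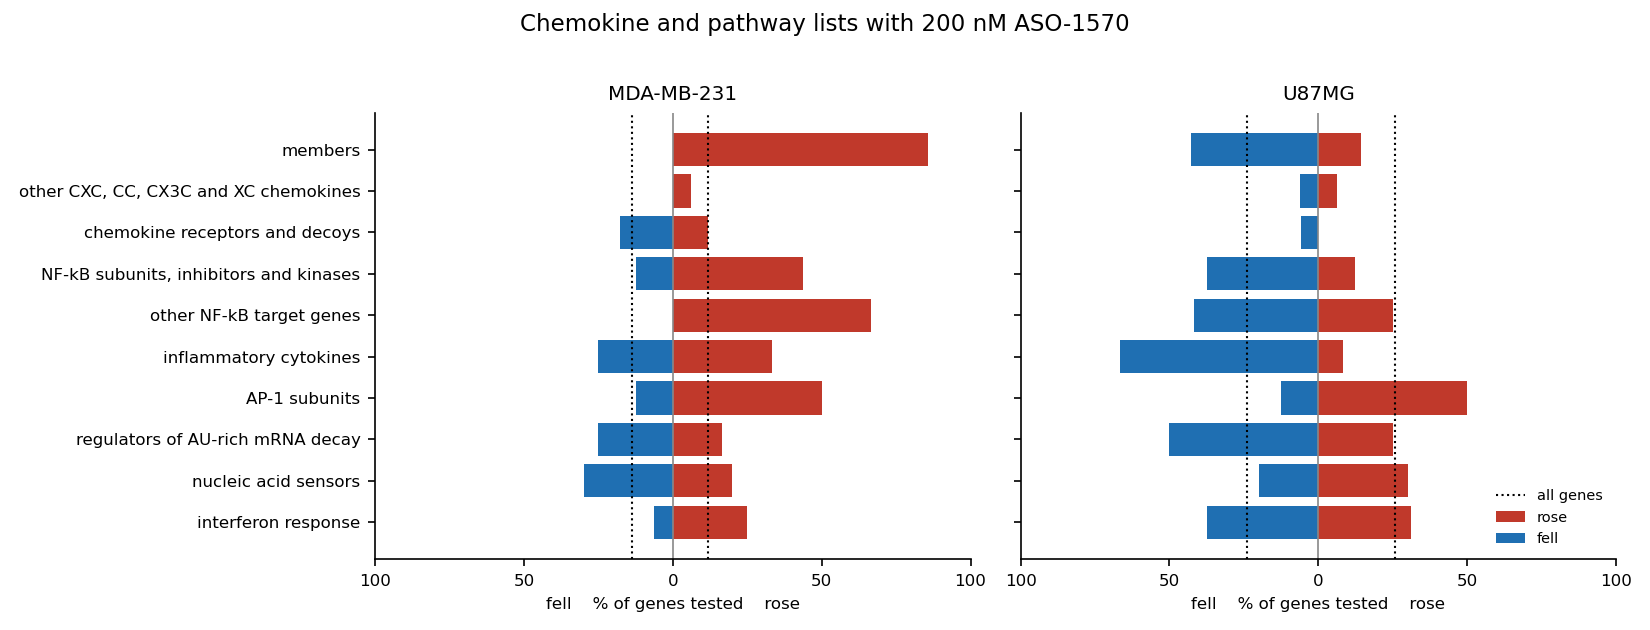
Percent of the tested genes of each list that rose or fell with ASO-1570 at 200 nM in MDA-MB-231 and in U87MG; dotted lines give the percent over all genes tested. In MDA-MB-231, 6 of 7 chemokine members, CXCL5 with its few counts among them, and 8 of 12 other NF-kB targets rose, and in U87MG 8 of 12 inflammatory cytokines fell.

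In the breast PDX the picture turned on a single control tumour. Control replicate 4 held CXCL1 at 57.4 CPM, CXCL2 at 13.1, CXCL3 at 17.1, CXCL5 at 59.3, CXCL8 at 59.9 and CCL20 at 58.3 CPM. The next highest control was 6.99 CPM for CXCL1, 1.12 for CXCL2, 1.65 for CXCL3, 5.96 for CXCL5, 8.39 for CXCL8 and 2.26 for CCL20, so the tumour exceeded it by 7.13 times (CXCL8) to 25.8 times (CCL20). CXCL6 did not follow to that degree, at 0.912 CPM, 1.48 times the next control. Of 10 other NF-kB targets tested, 8 were highest in the same tumour among the controls, and 6 were over 2-fold above the next control, as were 13.6% and 0.676% of all genes. PTGS2 and TRAF1 were not highest there. TNFAIP2, chosen after its values were seen, was at 10.9 to 34.0 CPM in treated tumours, against 169.6 CPM in control replicate 4 and 12.3 to 29.9 CPM in the other controls. NFKBIA, an inhibitor of NF-kB, was at 22.4 to 40.2 CPM in treated tumours, against 135 CPM in control replicate 4 and 22.5 to 37.9 CPM in the other controls.

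Among the remaining tumours the groups overlapped. CXCL1 had 2.17, 2.51, 4.40, 0.601 and 3.49 CPM in treated tumours, against 2.26, 3.49, 6.99, 57.4 and 4.67 CPM in controls. CXCL8 had 3.24, 2.02, 5.53, 0.721 and 4.66 CPM, against 3.801, 3.96, 8.39, 59.9 and 4.83 CPM. CCL20 had 1.02, 1.16, 1.90, 0.288 and 0.407 CPM, against 1.49, 0.898, 2.10, 58.3 and 2.26 CPM. Treated replicate 4 was the lowest treated tumour for each of these 3. CXCL5 had 3.10, 1.95, 3.76, 0.793 and 0.536 CPM, against 5.96, 3.93, 4.74, 59.3 and 3.50 CPM, and only treated replicate 3 reached the controls. Medians in treated and control tumours were 0.342 and 0.650 CPM for CXCL2, 0.553 and 1.19 CPM for CXCL3 and 0.241 and 0.476 CPM for CXCL6, each with overlap. CCL2 had 8 counts in 1 treated tumour and 0 in the other tumours. edgeR called 0 of the 7 members tested (adjusted p = 0.487 each), against 0% of all genes. All 7 had lower fitted means, and 6 had an unadjusted p below 0.05, against 8.62% of all genes, in a fit that includes control replicate 4. The log2 change was -2.51 for CXCL1 and -3.76 for CCL20 with that tumour, and -0.73 and -0.82 without it (adjusted p = 0.705 for both). Without it the others ranged from -0.20 for CXCL3 to -1.32 for CXCL6. DESeq2 called 3 genes in all.

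The PDX tumours also differed in ways beside treatment. Mitochondrial transcripts took 22.8, 38.1, 64.2, 75.3 and 64.3% of counts in treated tumours, against 17.7, 38.0, 29.8, 26.8 and 53.9% in controls. Summed leukocyte markers, 7 genes, were at 4.80 to 14.2 CPM, against 5.61 to 15.8 CPM, and fibroblast markers at 10.5 to 34.7 CPM, against 9.58 to 19.3 CPM. Their part in the chemokine levels was not tested.

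**Figure D5:**
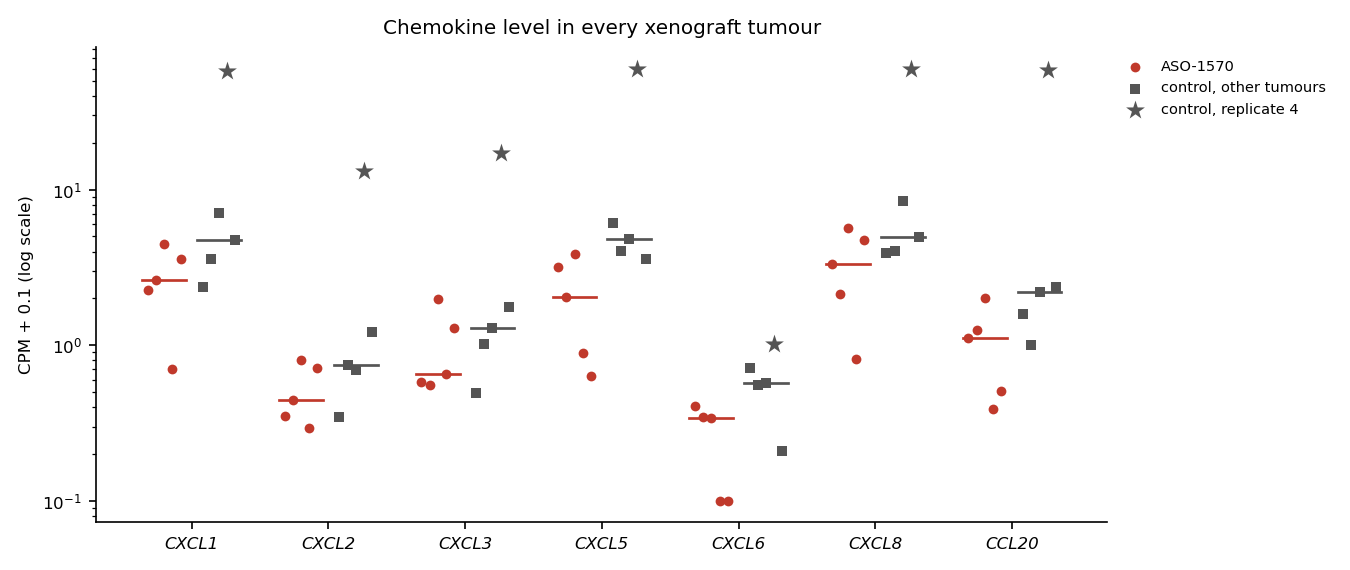
Level of 7 chemokines in every PDX tumour, as CPM plus 0.1 on a log scale; red circles are tumours injected with ASO-1570, grey squares controls, the star control replicate 4, and lines the group medians. The star lies above all other tumours for each gene, by 1.48 times the next control for CXCL6 and 7.13 to 25.8 times for the other 6.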

How the data were processed

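Per the labels, RNA of 46 samples in 14 groups was read as pairs from stranded mRNA libraries. Per the submitters' processing notes the authors used FastQC, MultiQC, Trimmomatic, STAR and StringTie with GRCh38; versions, the unit counted (reads or fragments) and the strand used in counting are not given in the sources used here. The deposited gene tables hold raw whole-number counts, and the deposited splicing tables hold the fraction spliced in of each event, with no read depth.

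The test for counts was that of edgeR 4.0.16 under R 4.3.3 (filterByExpr, TMM, quasi-likelihood, all groups of a table in 1 fit, Benjamini-Hochberg adjustment over all genes, called below 0.05). The SE comes from the F statistic and the 95% interval is a normal approximation. Differences between doses and agents used 1 fit of the 36 cell line libraries. Fractions were tested with limma 3.58.1, events with a range under 0.05 left out. Alternatives were DESeq2 1.42.0, RLE scaling, no filter, the 2 groups alone, a replicate block, the summed counts of CXCL1, CXCL2 and CXCL3, no mitochondrial genes, and each library left out. The fits were checked on simulated data with the same small spread in every group. That check does not cover the wide spread of the treated MDA-MB-231 libraries. Levels are TMM-scaled CPM; per-length levels divide by the union of exons in GENCODE v29. A symbol was given to 60340 of 60668 identifiers. The members and lists were chosen with earlier results of these data known. The text names all members, up to 4 called genes of smallest p per list and comparison, and the 3 genes most like each member; other genes shown per library were chosen after their values were seen. Unsuffixed copies of the 200 nM tables were identical and not used. A marker gene of the leukocyte list is not reported here and is left out of that list's sums.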

Additional observations from a re-analysis of the deposited data

Results flagged for a closer look

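In the PDX, control replicate 4 lay far from the other 4 controls for 6 chemokines, at 57.4 CPM for CXCL1, 13.1 CPM for CXCL2, 17.1 CPM for CXCL3, 59.3 CPM for CXCL5, 59.9 CPM for CXCL8 and 58.3 CPM for CCL20. CCL2 was at 0.0702 CPM in treated replicate 2 and at 0 in the other treated tumours. These are 7 of 16 sets of values examined, each being 1 of the 8 genes in 1 group of 5 tumours. The usual share marked by chance, about 5%, holds for independent normal values, and these genes share tumours. The 6 in control replicate 4 share 1 tumour, and that of CCL2 rests on 8 counts.

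Leaving CXCL5 aside, the change differed between the cell lines at 200 nM for 5 of 6 members. As MDA-MB-231 minus U87MG on the log2 scale it was 6.39 for CCL20, 3.30 for CXCL3, 3.05 for CXCL1, 2.15 for CXCL2 and 1.72 for CXCL8. The fit also gave 5.40 for CXCL5. That value rests on 3 counts in the MDA-MB-231 controls, is no measure of size and is not counted. At 50 nM the change differed for CCL20 (3.82) and CXCL3 (2.57), and with siRNA for CCL2 (1.15). The 4.38 of CXCL5 at 50 nM has the same limit.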

How the results depend on the processing

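The calls of CCL20, CXCL3 and CXCL5 lower in U87MG at both doses, and of CXCL1, CXCL2, CXCL3 and CCL20 higher in MDA-MB-231 at 200 nM, held under each alternative and with any 1 library left out, except that CXCL3 in U87MG was not called once summed with CXCL1 and CXCL2 (-0.49 at 200 nM and -0.32 at 50 nM), nor its line difference at 50 nM (1.66, adjusted p = 0.107). CXCL5 in MDA-MB-231 was lost with no filter (adjusted p = 0.0751). In the cell lines the replicate numbers gave little sign of pairing (correlations of same-numbered deviations -0.088 to 0.10). In the PDX these correlations were 0.7744 for replicate 1 and 0.4196 for replicate 5, and negative for replicates 2, 3 and 4. The absence of pairing is therefore not claimed for the tumours. With the replicate block, the 200 nM calls of CXCL8 in MDA-MB-231 (1.25, adjusted p = 0.0554) and between lines (1.60, adjusted p = 0.0756) were lost, and 1 member was called in MDA-MB-231 at 50 nM (CXCL3, adjusted p = 0.0456, where DESeq2 called CXCL1 alone), 1 in U87MG with siRNA, as with DESeq2, and 4 in 200 nM minus siRNA in MDA-MB-231, as with RLE scaling. Summing the 3 related genes turned CXCL2 to -0.32 in U87MG at 50 nM and to 0.082 in MDA-MB-231 with siRNA, and CXCL1 and CXCL3 to -0.23 in the siRNA line difference. That difference called 0 members with RLE, with no filter and with the sum, and 80 genes with RLE and 27 with no filter. No filter called 982 genes in MDA-MB-231 and 481 in U87MG with siRNA, and 25 in the dose difference in MDA-MB-231. DESeq2 called 1700 in U87MG with siRNA and 3 in the PDX. RLE turned CXCL5 in the U87MG dose difference to -0.011.

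Leaving out 1 library gave 4221 to 7787 genes called in MDA-MB-231 at 200 nM, 3696 to 5808 at 50 nM, 796 to 1408 with siRNA, 476 to 779 in U87MG with siRNA, 26 to 92 in the siRNA line difference and 13 to 699 in the MDA-MB-231 dose difference. Members called ranged from 0 to 4 in MDA-MB-231 at 50 nM, 0 to 1 in U87MG with siRNA, in the siRNA line difference and in the MDA-MB-231 dose difference, and 0 to 5 in 200 nM minus siRNA in MDA-MB-231. Signs turned for values near 0. At 50 nM these were CXCL8 (-0.33 to 0.90) and CCL2 (-0.044 to 0.58) in MDA-MB-231, CXCL2 (-0.12 to 0.36) and CXCL8 (-0.34 to 0.063) in U87MG, and CXCL8 (-0.19 to 1.04) and CCL2 (-0.23 to 0.40) in the line difference. With siRNA they were CXCL2 (-0.39 to 0.0029), CXCL3 (-0.013 to 0.37), CXCL5 (0 to 3.16) and CXCL8 (-0.41 to 0.044) in MDA-MB-231, CXCL1 (-0.0094 to 0.29) in U87MG, and CXCL3 (-0.22 to 0.16), CXCL5 (-0.25 to 2.91) and CCL20 (-0.065 to 0.35) in the line difference. In the dose difference they were CXCL5 (-0.22 to 3.27) and CCL2 (-0.087 to 0.85) in MDA-MB-231, and CXCL1 (-0.093 to 0.36), CXCL2 (-0.44 to 0.019), CXCL3 (-0.30 to 0.12), CXCL5 (-0.21 to 0.29) and CCL20 (-0.50 to 0.017) in U87MG. Against siRNA in MDA-MB-231 they were CXCL5 (-1.20 to 3.13) and CCL2 (-0.66 to 0.16) at 200 nM, and CXCL1 (-0.053 to 1.67), CXCL5 (-2.07 to 2.27), CXCL8 (-0.22 to 1.02) and CCL20 (-0.43 to 0.62) at 50 nM. The cause was not tested.

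Over all alternatives the adjusted p of CXCL8 ran from 0.000364 to 0.119 in MDA-MB-231 and from 0.00147 to 0.655 in U87MG at 200 nM. That of CXCL1 ran from 0.00597 to 0.645 in U87MG at 200 nM and from 0.0074 to 0.47 in MDA-MB-231 at 50 nM. That of CXCL5 in MDA-MB-231 at 200 nM ran from 0.00533 to 0.215, of CCL2 in U87MG at 200 nM from 0.000836 to 0.0592, and of CCL20 in U87MG with siRNA from 0.0118 to 0.307. CXCL5 and CXCL6 in MDA-MB-231 had so few counts that depth limits what can be seen of them.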
